A study of Mus musculus with 5 samples.

Results

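The cells described here are alveolar type 2 (AT2) cells of Itgb1 iKO mouse lungs in which Itgb1 RNA was still counted. Itgb1 encodes the β1 integrin subunit and is the gene that these mice were made to delete in AT2 cells. In 3 Itgb1 iKO libraries, 1571 barcodes passed a gate for AT2 cells, out of 29500 barcodes that passed the quality filter in all 5 libraries. Each gated cell was thinned at random to 5000 unique molecular identifiers (UMIs, counts of single captured RNA molecules). Of the 1571 cells, 292 then held 2 or more Itgb1 UMIs, 477 held 1 and 802 held 0. The comparison is between the 292 and the 802. The classes were chosen by the Itgb1 count in the drawn UMIs, so those counts are a description and were not tested.

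All mice carried floxed Itgb1 alleles on a C57BL/6 background. Itgb1 iKO mice also carried the SP-C rtTA and TetO-Cre transgenes, so that doxycycline in the drinking water switches on Cre recombinase in cells with an active surfactant protein C promoter. Itgb1 fl/fl littermates, which lacked both transgenes, were the controls. Adult mice were given a single intratracheal dose of lipopolysaccharide (LPS), and lungs were taken 7 or 21 days later. A further Itgb1 iKO library came from mice given saline (PBS) and taken at day 7. CD45-negative, Ter119-negative cells were sorted, and the 2 day 21 libraries were enriched for epithelial cells. Each library pooled mice marked by hashtag antibodies, with 3 hashtags in use in each, and each hashtag was taken as 1 mouse.

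β1 integrin sits in the cell membrane as a pair with an α subunit and binds laminins, collagens and fibronectin of the basement membrane. Inside the cell, talin, vinculin and related adaptors tie the pair to actin. AT2 cells make pulmonary surfactant and are the progenitors of the alveolus. After injury they divide and give rise to flat alveolar type 1 (AT1) cells, a step that requires a large change in cell shape on the basement membrane.

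A gated AT2 cell had at least 700 genes, 0.1 to 15% mitochondrial UMIs, at least 5000 UMIs and at least 5% of UMIs from Sftpc. It also had at least 3 of 6 further AT2 genes (Lamp3, Slc34a2, Etv5, Lpcat1, Napsa, Epcam) and no UMI of 5 genes of endothelial, mesenchymal, ciliated or immune cells (Cdh5, Pecam1, Col1a2, Foxj1, Ptprc). The gate kept 309 cells of the Itgb1 iKO LPS day 7 library, 1236 of the day 21 library and 26 of the PBS library. In the Itgb1 fl/fl libraries it kept 121 cells at day 7 and 180 at day 21. Median depth of the gated cells was 8375 to 11219 UMIs. AT2 genes that the gate did not use were found in most gated cells. Sftpa1, Sftpb and Sftpd were detected in 100% of gated cells of every library, Cxcl15 in 99.9 to 100%, Lyz2 in 96.8 to 100% and Abca3 in 91.7 to 100%. The AT1 gene Pdpn was detected in at most 11% of gated cells and Rtkn2 in at most 3.6%, while Ager, which AT1 cells express highly, was detected in 93.4 to 98.9%. The AT1 gene Hopx was detected in 22.0% of Itgb1 iKO LPS day 7 cells and in 7.69 to 10.7% in the other libraries. Scgb1a1, a gene of airway club cells, was detected in 30.6 to 82.6%. No gated barcode was shared between the Itgb1 iKO libraries, and 1 was shared between the 2 day 21 libraries.

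Itgb1 was lower in AT2 cells of the LPS-treated Itgb1 iKO libraries than in those of Itgb1 fl/fl, but was not absent. At 5000 UMIs, the mean was 0.835 Itgb1 UMIs per cell at day 7 and 0.765 at day 21 in Itgb1 iKO, against 1.60 and 2.09 in Itgb1 fl/fl. Across mice with a single hashtag, the Itgb1 iKO means were 1.10, 0.841 and 1.04 at day 7 and 0.765, 0.873 and 0.730 at day 21. The Itgb1 fl/fl means were 1.57, 1.33 and 1.65 at day 7 and 2.00, 2.19 and 2.12 at day 21. The 6 Itgb1 iKO mice all lay below the 6 Itgb1 fl/fl mice. The 26 PBS-treated Itgb1 iKO cells had a mean of 0.385 in this draw. In their UMIs that were not drawn, Itgb1 stood at 136 counts per 1000000 UMIs (exact Poisson interval 83.0 to 210). The LPS-treated Itgb1 iKO cells stood at 139 at day 7 and 143 at day 21 in theirs, so a lower level after PBS is not shown. Itgb1 lies on chromosome 8 from 128685654 to 128733200 on the plus strand (GRCm38). UMIs were counted over the whole gene, and which exons are floxed is not given in the sources used here, so a UMI from a recombined allele cannot be told apart from a UMI of an intact one.

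Cells with 2 or more Itgb1 UMIs were 20.7% of gated AT2 cells at day 7 in Itgb1 iKO (64 cells, 95% exact binomial interval 16.3 to 25.7%). They were 18.4% at day 21 (227 cells, 16.2 to 20.6%) and 3.85% after PBS (1 cell, 0.0973 to 19.6%). The same threshold was met by 43.8% of Itgb1 fl/fl cells at day 7 (53 cells, 34.8 to 53.1%) and 55.0% at day 21 (99 cells, 47.4 to 62.4%). Per Itgb1 iKO mouse the share was 25%, 18.3% and 30.6% at day 7 and 18.0%, 21.9% and 17.5% at day 21. Every LPS-treated mouse of either genotype therefore contributed cells to both classes. Before thinning, the share with 2 or more UMIs was 35.9% at day 7 and 34.5% at day 21 in Itgb1 iKO, and 67.8% and 85.0% in Itgb1 fl/fl. In the 26 PBS cells it was 38.5% (10 cells). Their median depth was 10682.5 UMIs, against 8375 at day 7 and 8515.5 at day 21 in LPS-treated Itgb1 iKO cells. A second random draw of 5000 UMIs placed 3 of the PBS cells (11.5%) at 2 or more. Intervals here cover counting error only.

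In the 4 LPS libraries of both genotypes the Itgb1 counts covered every step from 0 to 3 or more. The 26 PBS cells, with 18 at 0, 7 at 1, 0 at 2 and 1 at 3 or more, are too few to show a shape. In Itgb1 iKO at day 7, 157 cells had 0 UMIs, 88 had 1, 38 had 2 and 26 had 3 or more, and at day 21 the numbers were 627, 382, 150 and 77. A Poisson distribution with the measured mean gives 20.4% of cells with 2 or more UMIs at day 7 and 17.9% at day 21, which is within the intervals of the measured shares. The ratio of variance to mean was 1.5 and 1.28, where a Poisson distribution has 1, so cells with 0 and with 3 or more UMIs were both more frequent than under that distribution. For 3 or more UMIs the measured shares were 8.41% and 6.23% against 5.26% and 4.26%. In Itgb1 fl/fl the ratio was 1.34 and 1.47. The threshold of 2 UMIs thus lies within a run of counts without a gap. Whether the counts come from 1 population of cells or from a mix was not tested. Of the cells placed at 2 or more by the first random draw, 40 of 64 at day 7 and 153 of 227 at day 21 were placed there again by a second draw.

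**Figure D1:**
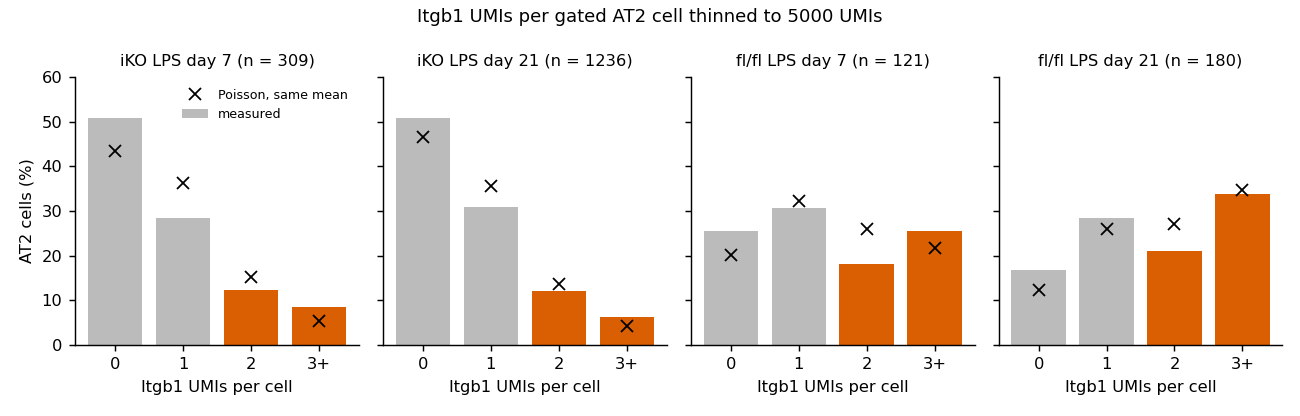
Share of gated AT2 cells (%) by the number of Itgb1 UMIs at 5000 UMIs, for 4 LPS libraries. Bars are the measured shares (orange, 2 or more UMIs) and crosses a Poisson distribution of the same mean. In both Itgb1 iKO libraries (iKO) the bar at 0 is the highest and the bars fall with each step, with no second peak.

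Whether the classes differed in Itgb1 level was tested in the UMIs of each cell that were not drawn, which played no part in setting the class. In these remaining UMIs, Itgb1 was higher in the cells placed at 2 or more UMIs. In the 3 Itgb1 iKO mice of day 7 it stood at 401, 180 and 180 counts per 1000000 UMIs (CPM) in those cells and at 111, 96.0 and 147 CPM in the cells placed at 0. In the 3 mice of day 21 the values were 328, 314 and 218 CPM against 95.05, 140 and 100 CPM. The lowest mouse of the upper class lay above the highest of the lower class. The mean was 270 ± 91.0 CPM (SD, n = 6 mice) against 115 ± 23.1 CPM, a difference of 155 CPM found in 6 of 6 mice (two-sided exact sign-flip permutation test, p = 0.03125, the smallest that 6 mice can give).

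Itgb1 in the remaining UMIs rose with each step of the count in the drawn UMIs in both Itgb1 iKO LPS libraries, though not evenly. At day 21, the remaining UMIs held Itgb1 at 113 CPM in cells placed at 0 (exact Poisson interval 101 to 126), 137 CPM at 1 (118 to 159), 225 CPM at 2 (187 to 270) and 331 CPM at 3 or more (265 to 409). At day 7 the 4 values were 100, 129, 230 and 371 CPM. In both libraries, cells just outside the threshold, with 1 UMI, lay closer to cells with 0 than to cells just inside it, with 2. Cells placed at 0 still held 319 Itgb1 UMIs among 2830960 remaining UMIs at day 21 and 71 among 708428 at day 7, so a count of 0 in the drawn UMIs does not mark a cell without Itgb1 RNA.

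The same split in Itgb1 fl/fl cells gave 332 ± 102 CPM at 2 or more UMIs and 186 ± 67.9 CPM at 0 (SD, n = 6 mice), higher in 6 of 6 mice (exact sign-flip permutation, p = 0.03125). In a second random draw it was higher in 5 of 6 mice and did not pass (exact permutation, p = 0.0625). The log2 ratio between classes was 1.19 ± 0.58 in Itgb1 iKO and 0.85 ± 0.61 in Itgb1 fl/fl, and the difference of 0.34 did not pass (exact permutation of genotype within day, two-sided, p = 0.365, adjusted p = 0.365 over 3 comparisons). That second draw gave a difference of 0.68 with an unadjusted exact p = 0.025, so this comparison rests on the draw. Itgb1 iKO cells at 2 or more UMIs were at 270 CPM against 332 CPM in Itgb1 fl/fl (exact permutation, p = 0.295, adjusted p = 0.365). Cells at 0 were at 115 against 186 CPM (exact permutation, p = 0.03, adjusted p = 0.09). Neither difference between genotypes passed after adjustment. For Itgb1 fl/fl cells placed at 0, 1, 2 and 3 or more, the remaining UMIs held Itgb1 at 144, 195, 269 and 311 CPM at day 7. At day 21 the values were 252, 235, 269 and 447 CPM, without a rise from 0 to 1.

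**Figure D2:**
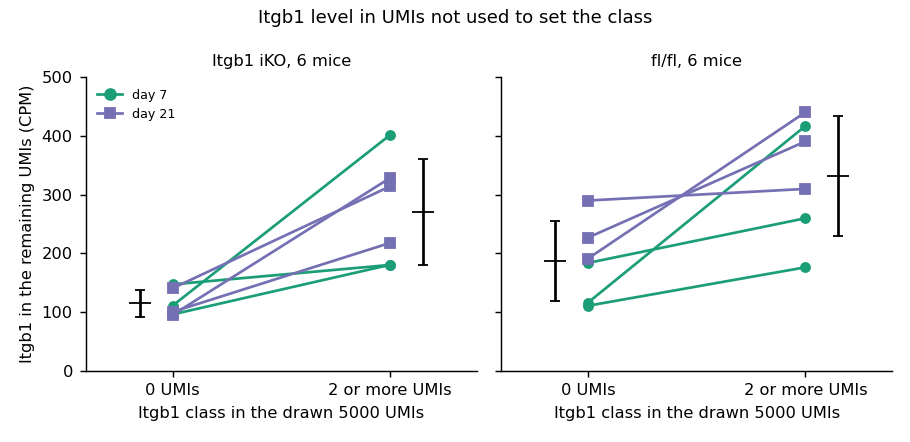
Itgb1 (CPM) in the UMIs that were not drawn, for cells placed at 0 and at 2 or more Itgb1 UMIs. Each line is 1 mouse (green circles day 7, purple squares day 21) and bars give the mean ± SD of 6 mice. All 12 lines rise, in Itgb1 iKO from a mean of 115 to 270 CPM and in Itgb1 fl/fl from 186 to 332 CPM.

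RNA of other cell types was measured in both classes. Endothelial cells of the same libraries held Itgb1 at 742 to 1056 CPM. The 18 endothelial marker genes summed to 409 CPM in Itgb1 iKO day 7 cells with 2 or more Itgb1 UMIs (exact Poisson interval 342 to 486) and to 414 CPM in those with 0 (370 to 462). At day 21 they summed to 226 CPM (200 to 256) and 204 CPM (188 to 220). Scaled to endothelial cells of the same library, these sums correspond to 17.1 and 17.2 CPM of Itgb1 at day 7 and to 7.31 and 6.57 CPM at day 21. Only endothelial RNA was scaled in this way, and the part of RNA from other cells in the class difference was not tested. Of the 11 fibroblast markers 5 and 1 were at 0 UMIs in the upper and lower class at day 7, and 2 and 0 at day 21, with sums of 150 and 122 CPM and of 51.1 and 56.1 CPM. Of 10 immune markers, 8 to 9 were at 0 in each class. Club cell markers (5 genes, none of which was used by the gate) summed to 416 CPM in the upper and 819 CPM in the lower class at day 7, and to 328 and 306 CPM at day 21. In the lower class at day 7, the second mouse alone stood at 2137 CPM for these genes. In the second Itgb1 fl/fl mouse of day 7, the 7 cells with 0 Itgb1 UMIs held them at 33000 CPM (1155 UMIs) and its upper class at 650 CPM. The part of club cell RNA in any gene's difference was not tested. Among barcodes with more than 1 hashtag, 29.4% of 17 cells at day 7 (exact interval 10.3 to 56.0%) and 14.3% of 56 at day 21 (6.38 to 26.2%) had 2 or more UMIs, and both intervals hold the share over all gated cells of that library.

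With classes set in the drawn UMIs, cells with more Itgb1 showed more genes and a smaller share of surfactant protein C in both genotypes. Genes detected and the Sftpc share were taken in the same 5000 UMIs that set the class. A smaller Sftpc share leaves more of these UMIs for all other genes, Itgb1 included, and the part of this was not tested. Itgb1 iKO cells with 2 or more Itgb1 UMIs had 1952 ± 33.8 genes at 5000 UMIs against 1738 ± 21.7 in cells with 0 (mean of mouse means ± SD, n = 6). The difference of 214 genes was in the same direction in 6 of 6 mice (exact sign-flip permutation, p = 0.03125, adjusted p = 0.0417 over 4 measures). Their Sftpc share was 16.1 ± 1.51% against 22.5 ± 0.744% of UMIs, lower in 6 of 6 mice (exact p = 0.03125, adjusted p = 0.0417). Total UMIs before thinning were 8346 ± 692 against 10015 ± 432 (exact p = 0.03125, adjusted p = 0.0417), but this order turned to 9499 against 8973 when the class was set from all UMIs of a cell. In the class set from all UMIs, genes detected and the Sftpc share kept their direction in 6 of 6 mice. Each had the smallest p that 6 mice can give (exact permutation, p = 0.03125). Fewer of the 4 measures reached that value than in the drawn UMIs, so neither could pass after adjustment (adjusted p = 0.0625 for both). The mitochondrial share was 1.93 ± 0.257% against 1.60 ± 0.253%, higher in 5 of 6 mice, and did not pass (exact p = 0.125).

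A pair of further measures, added after their values were seen, was not part of that family of tests. UMIs of 82 ribosomal protein genes took 3.80 ± 1.38% in cells with 2 or more Itgb1 UMIs and 5.70 ± 0.600% in cells with 0. Malat1, a long nuclear RNA, took 3.79 ± 1.60% and 2.14 ± 0.696%. For both, 5 of 6 mice went one way and the third mouse of day 7 went the other: its ribosomal share was 6.45% against 5.16%, and its Malat1 share was 1.16% against 2.53%. In Itgb1 fl/fl, the same split gave 1855 ± 54.4 against 1581 ± 73.3 genes, an Sftpc share of 17.8 ± 2.02% against 25.1 ± 2.26%, a ribosomal share of 4.38 ± 0.402% against 7.85 ± 0.322% and a Malat1 share of 3.05 ± 0.704% against 1.04 ± 0.187%, each in the same direction in 6 of 6 mice. The mitochondrial share there was 2.41 ± 0.423% against 1.70 ± 0.461%, higher in 6 of 6 mice, and passed (exact permutation, adjusted p = 0.0417). With the class set from all UMIs, genes detected and the Sftpc share in Itgb1 fl/fl each held in 5 of 6 mice and did not pass (exact permutation, adjusted p = 0.125 for both).

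**Figure D3:**
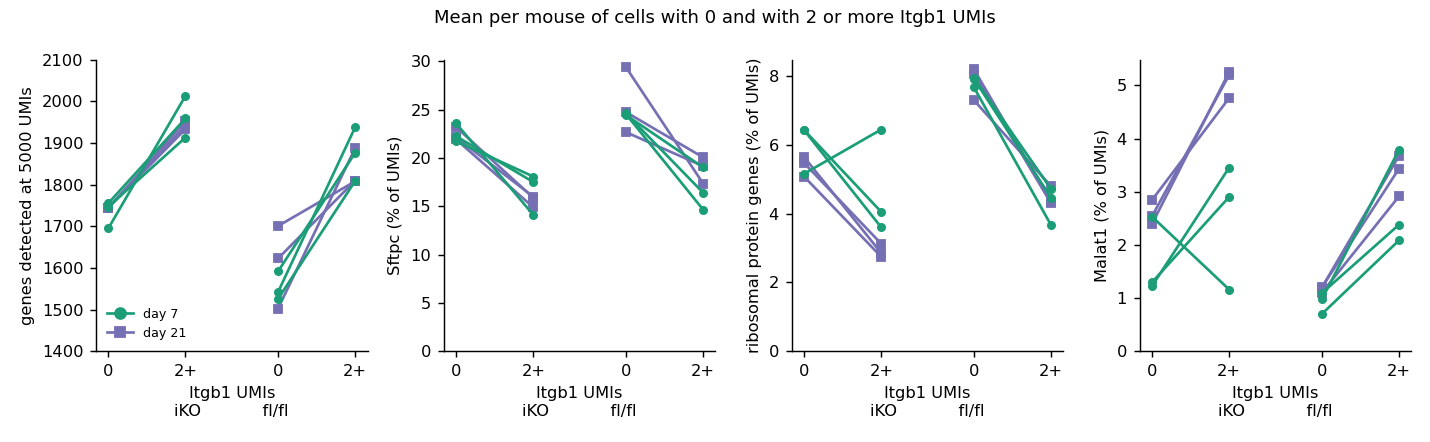
Mean per mouse of 4 measures in AT2 cells with 0 and with 2 or more Itgb1 UMIs, each line 1 mouse (green circles day 7, purple squares day 21); the axis of genes detected starts at 1400 and the others at 0. Genes detected rise and the Sftpc share falls in all 12 mice, while the third day 7 Itgb1 iKO mouse runs against the others in ribosomal protein and Malat1 shares.

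Gene expression was compared between the classes within each mouse, on the summed thinned counts of 6 Itgb1 iKO mice (10 to 55 cells with 2 or more Itgb1 UMIs and 19 to 156 with 0 per mouse). The PBS library gave no mouse with 5 cells in both classes and does not enter. Of 3023 genes tested, Itgb1 left out, 706 (23.4%) passed a false discovery rate of 0.05 (edgeR quasi-likelihood test with the mouse as a block), 255 (8.44%) higher and 451 (14.9%) lower in cells with 2 or more Itgb1 UMIs. These changes are relative to the scaling between sums (TMM). Without scaling, the median log2 fold change of all genes tested was 0.28 in place of 0.03, and the calls were 915 higher and 251 lower. So a sign near 0 depends on the scaling, and values in CPM, which are not so scaled, can order the classes differently.

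The 12 genes with the largest rises were higher by 0.95 to 1.09 on the log2 scale. Map4k5, a kinase upstream of the JNK pathway, stood at 100, 66.7 and 53.3 CPM in the day 7 mice and at 82.6, 47.3 and 69.1 CPM in the day 21 mice in cells with 2 or more Itgb1 UMIs. In cells with 0 it stood at 21.1, 34.1 and 31.6 CPM and at 28.6, 27.6 and 23.1 CPM. The groups did not overlap, and Map4k5 was higher by 1.09 ± 0.269 on the log2 scale (SE, adjusted p = 0.00513). Lrrc8d, a subunit of volume-regulated anion channels, rose by 1.05 ± 0.252 (adjusted p = 0.00435), Mical2, which oxidizes actin, by 1.04 ± 0.252 (adjusted p = 0.00447) and Rin2, a Rab5 exchange factor that also binds Ras, by 1.01 ± 0.259 (adjusted p = 0.00634), all without overlap between classes.

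Dst, which encodes dystonin, a linker of the cytoskeleton to adhesion sites, rose by 1.01 ± 0.194 on the log2 scale (adjusted p = 0.001). The other genes with the largest rises were Gm26917, Lnpep, Stk4 (a Hippo pathway kinase), Ric1, Ankrd13c, Rc3h2 and Dlg1, a scaffold of cell junctions, at 0.95 to 1.06. Of the 12 genes with the largest rises, 9 were higher in 6 of 6 mice and 3 (Stk4, Ric1 and Dlg1) in 5 of 6.

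The 12 genes with the largest falls had log2 differences of -1.38 to -1.19. Romo1, a small protein of the mitochondrial inner membrane, stood at 80.0, 80.0 and 187 CPM at day 7 and at 69.6, 76.4 and 109 CPM at day 21 in cells with 2 or more Itgb1 UMIs, against 263, 239 and 232 CPM and 173, 184 and 177 CPM. It was lower in 6 of 6 mice, and fell by 1.27 ± 0.193 on the log2 scale (adjusted p = 0.000279). Rps7 stood at 540, 440 and 973 CPM and at 335, 389 and 305 CPM against 1168, 1088 and 863 CPM and 821, 870 and 769 CPM. It was lower in 5 of 6 mice, the exception being the third mouse of day 7, and fell by 1.24 ± 0.188 (adjusted p = 0.000279).

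Snrpg, a core protein of the spliceosome, fell by 1.38 ± 0.28 on the log2 scale (adjusted p = 0.00128), and Eif3i, a translation initiation factor subunit, by 1.21 ± 0.229 (adjusted p = 0.00093). The other genes with the largest falls were Smim11, Retnla, Rac3, Rnaseh2c, Anapc13, Rps25, Rps28 and Rtraf, between -1.35 and -1.19. Ribosomal protein genes have many processed pseudogenes, which the authors' counting could have mixed with them.

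**Figure D4:**
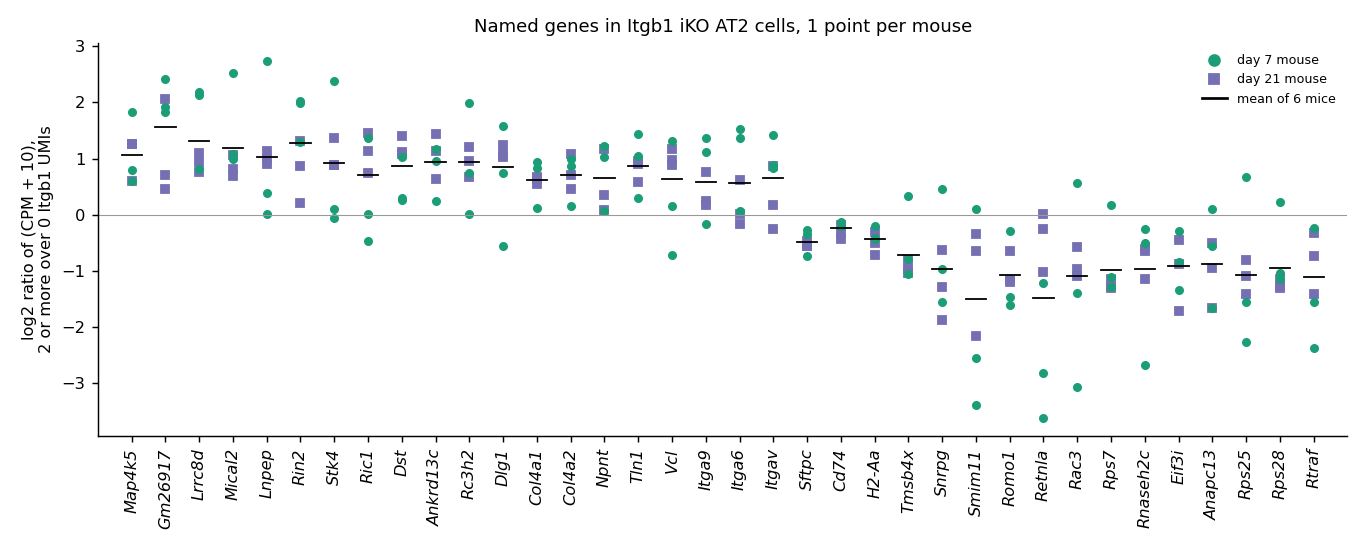
Log2 ratio of CPM (after adding 10) between cells with 2 or more and with 0 Itgb1 UMIs in Itgb1 iKO mice, 1 point per mouse and a line at the mean, for the 12 largest rises, 12 genes of the lists described and the 12 largest falls. Most points of a gene lie on 1 side of 0, and the points that cross are mostly day 7 mice.

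Among the α subunits that pair with β1, none passed in Itgb1 iKO. Itga9 stood at 260, 267 and 187 CPM at day 7 and at 283, 211 and 204 CPM at day 21 in cells with 2 or more Itgb1 UMIs, against 94.7, 117 and 211 CPM and 162, 176 and 179 CPM. It was higher in 5 of 6 mice, with overlap, and its log2 difference of 0.30 ± 0.179 did not pass (adjusted p = 0.214). Itgav (0.39 ± 0.241, adjusted p = 0.226) and Itga6, a laminin-binding subunit (0.16 ± 0.288, adjusted p = 0.709), did not pass either. Without scaling between sums Itga9 and Itgav did pass, at 0.56 and 0.66. The other 9 of 12 α subunits were too low to test, with Itga3 at 41.5 ± 17.4 and 34.5 ± 8.25 CPM and Itga7 at 25.8 ± 8.17 and 36.8 ± 4.58 CPM as the highest (SD, n = 6). Of the other β subunits none could be tested, and Itgb6 stood at 22.4 ± 14.3 and 14.4 ± 7.01 CPM, Itgb5 at 6.77 ± 8.12 and 4.90 ± 4.22 CPM and Itgb8 at 0 in both classes. In Itgb1 fl/fl, 1 of the 12 α subunits could be tested and passed (log2 difference 1.43), against 25.9% of all genes called higher there. Itga9 stood there at 300 ± 96.9 and 115 ± 29.1 CPM, higher in 6 of 6 mice without overlap. The 1 α subunit tested for a difference between genotypes did not pass (-0.79).

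Of 17 focal adhesion adaptors tested, 2 rose and 1 fell (list median -0.10, all genes tested 0.03), against 8.44% of all genes called higher and 14.9% lower. Tln1, which encodes the talin that activates integrins, stood at 160, 213 and 93.3 CPM and at 213, 189 and 236 CPM against 52.6, 97.6 and 73.7 CPM and 110, 124 and 117 CPM. It was higher in 6 of 6 mice (0.69 ± 0.168, adjusted p = 0.00476). Vcl, which encodes vinculin, rose by 0.79 ± 0.189 on the log2 scale (adjusted p = 0.00427) and was higher in 5 of 6 mice. The tetraspanin Cd9 fell by 0.55 ± 0.173 (adjusted p = 0.0227). In DESeq2 1 was higher and 1 lower, and Vcl did not pass (adjusted p = 0.0565). Without scaling between sums the split was 4 higher and 0 lower.

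Of 27 actin cytoskeleton genes tested, 1 rose and 5 fell (list median -0.12), against 8.44% of all genes called higher and 14.9% lower, so the share that fell is near that of all genes. Actr2, a core subunit of the Arp2/3 complex, rose by 0.63 ± 0.183 on the log2 scale (adjusted p = 0.0146). The actin monomer binder Tmsb4x fell by 0.95 ± 0.166 (adjusted p = 0.000558), the myosin light chain Myl6 by 0.88 ± 0.173 (adjusted p = 0.00104) and the Arp2/3 subunit Arpc3 by 0.75 ± 0.21 (adjusted p = 0.0114). In DESeq2 the list had 0 higher and 3 lower, and Actr2 did not pass (adjusted p = 0.0895). Without scaling between sums the split was 5 higher and 2 lower.

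Of 6 basement membrane genes tested, 3 rose and none fell (list median 0.57), against 8.44% of all genes called higher. Col4a2, a collagen IV chain, stood at 220, 213 and 107 CPM at day 7 and at 161, 120 and 156 CPM at day 21 against 116, 102 and 94.7 CPM and 70.7, 69.9 and 112 CPM. It was higher in 6 of 6 mice (0.58 ± 0.177, adjusted p = 0.0201). Col4a1, its partner chain, rose by 0.45 ± 0.157 and Npnt, which encodes the β1 ligand nephronectin, by 0.56 ± 0.197 (both adjusted p = 0.0385), each in 6 of 6 mice. In DESeq2 none of the 3 passed.

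All 13 AT2 identity genes were tested, and 2 fell (list median -0.26), a share near the 14.9% of all genes called lower. In Itgb1 fl/fl the same 13 genes had 7 higher and 1 lower (list median 0.34, against 25.9% and 27.1% of all genes there). Sftpc and Napsa were also used by the gate, in the same way for both classes. Sftpc stood at 180820, 141107 and 175093 CPM at day 7 and at 149004, 159945 and 158771 CPM at day 21 in cells with 2 or more Itgb1 UMIs. In cells with 0 it stood at 217242, 235771 and 222526 CPM and at 219189, 221408 and 231974 CPM, without overlap. It fell by 0.70 ± 0.0977 on the log2 scale (adjusted p = 0.000159). Napsa, a protease that processes surfactant proteins, fell by 0.39 ± 0.135 (adjusted p = 0.0357). Sftpa1 (-0.30 ± 0.115, adjusted p = 0.0558) and the surfactant lipid transporter Abca3 (-0.06 ± 0.145, adjusted p = 0.791) did not pass. Without scaling, 4 members of this list were higher and 1 lower.

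Few genes of the AT2 to AT1 transition passed. Of 11 genes of the Krt8-positive transitional state tested, 1 passed: Cdkn1a, a cell cycle inhibitor, fell by 0.56 ± 0.183 on the log2 scale (adjusted p = 0.0276), against 14.9% of all genes called lower, and in DESeq2 it did not pass (adjusted p = 0.135). Krt8 was at 287 ± 178 and 249 ± 80.0 CPM (log2 difference -0.12 ± 0.194, adjusted p = 0.693), and the growth factors Hbegf (0.20 ± 0.17, adjusted p = 0.401) and Areg (-0.46 ± 0.193, adjusted p = 0.0832) did not pass. Of 5 AT1 genes tested, Ager fell by 0.46 ± 0.148 (adjusted p = 0.0268) and Aqp5 was at -0.22 ± 0.176 (adjusted p = 0.354). Hopx was too low to test. None of 4 activated AT2 genes, 3 YAP targets and 2 cell cycle genes tested passed. Without scaling, 1 transitional gene was higher and 0 lower, 1 YAP target was higher and no AT1 gene passed.

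Of 7 MHC class II genes tested, 5 fell (list median -0.47), against 14.9% of all genes called lower, and 1 of the 7 had a log2 difference above 0 that did not pass. H2-Aa stood at 1920, 2120 and 1573 CPM and at 1326, 1553 and 1400 CPM against 2547, 2439 and 2126 CPM and 1880, 2559 and 1732 CPM, lower in 6 of 6 mice (-0.65 ± 0.139, adjusted p = 0.00192). The invariant chain Cd74 fell by 0.45 ± 0.119 on the log2 scale (adjusted p = 0.00746), lower in 6 of 6 mice. In DESeq2 3 of the 7 passed, and without scaling 1 did. Of 11 NF-κB genes tested, 2 rose, against 8.44% of all genes: Nfkb1 by 0.83 ± 0.213 (adjusted p = 0.0065) and Malt1, a signalling paracaspase, by 0.69 ± 0.199 (adjusted p = 0.0142). Of 14 immediate early genes tested, 2 fell, a share near the 14.9% of all genes: Junb fell by 0.59 ± 0.156 (adjusted p = 0.00797) and Jund by 0.49 ± 0.151 (adjusted p = 0.0209). Without scaling, 5 NF-κB genes were higher and 0 lower, and 1 immediate early gene was higher and 0 lower.

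The class difference followed transcript length. The 255 genes that were higher had a median longest transcript of 6311 bases and the 451 that were lower of 1172 bases, with 3260 bases over all genes tested (GENCODE, GRCm38; 100% of genes matched). Among the 756 genes with the shortest transcripts (up to 1946 bases), 0 were called higher and 337 lower, with a median log2 difference of -0.51. Among the 756 with the longest (from 5119 bases), 163 were higher and 5 lower, with a median of 0.39. The longest annotated Itgb1 transcript has 3815 bases. Of 79 ribosomal protein genes tested, 77 fell (list median -0.90, from -1.24 to -0.33), and of 72 nuclear subunits of the respiratory chain, 55 fell and 0 rose (list median -0.81), against 14.9% of all genes called lower. Both lists were added after the values were seen.

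The number of calls changed when cells were matched on how many genes they showed. When each Itgb1 iKO cell with 2 or more Itgb1 UMIs was paired within its mouse with a cell at 0 of the nearest number of detected genes (196 cells per class, mean 1952 and 1892 genes), 1 of 2292 genes tested passed, Lyz1, with 168 at an unadjusted p under 0.05. Of the 706 calls, 614 were tested there, 605 kept their sign, 0 passed, and the median of their log2 difference was 0.418 of the first value. Taking the same number of cells at 0 without regard to genes left 495 calls. In the matched cells, the median of the shortest to the longest of 4 length groups ran from -0.18 to 0.14 in place of -0.51 to 0.39. Itgb1 in the undrawn UMIs still differed in these paired cells, at 270 ± 91.0 against 145 ± 43.7 CPM, higher in 6 of 6 mice (exact sign-flip permutation, p = 0.03125). The third mouse of day 7 had the smallest difference, at 180 against 164 CPM. Genes detected were matched less closely at day 7 (1959, 2013 and 1913 against 1828, 1911 and 1811). At day 21 they stood at 1942, 1934 and 1953 against 1939, 1916 and 1947. The pairing was chosen after the calls were seen, and the part of cell complexity in them was not tested further.

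In Itgb1 fl/fl AT2 cells, where no deletion is expected, the same split also separated many genes. Of 505 genes tested over 6 mice (8 to 35 cells with 2 or more Itgb1 UMIs and 5 to 15 with 0 per mouse), 131 (25.9%) were higher and 137 (27.1%) lower (edgeR, false discovery rate of 0.05). All 505 were also tested in Itgb1 iKO. Of these, 155 were called in both genotypes, which is 66.8% of the 232 Itgb1 iKO calls among them and 57.8% of the 268 Itgb1 fl/fl calls. All 155 had the same direction, 26 higher and 129 lower. Over all 505 genes, called or not, 381 (75.4%) had the same sign, and the median log2 difference was -0.32 in Itgb1 iKO and 0.03 in Itgb1 fl/fl. Across the 505 genes, which are not independent replicates, Pearson's r between the 2 sets of log2 fold changes was 0.899. Malat1 rose by 1.67 in Itgb1 fl/fl and by 0.56 in Itgb1 iKO, and 67 of 74 ribosomal protein genes fell in Itgb1 fl/fl. Without the second day 7 mouse, whose lower class held the club cell RNA given above, 332 of 750 genes passed.

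**Figure D5:**
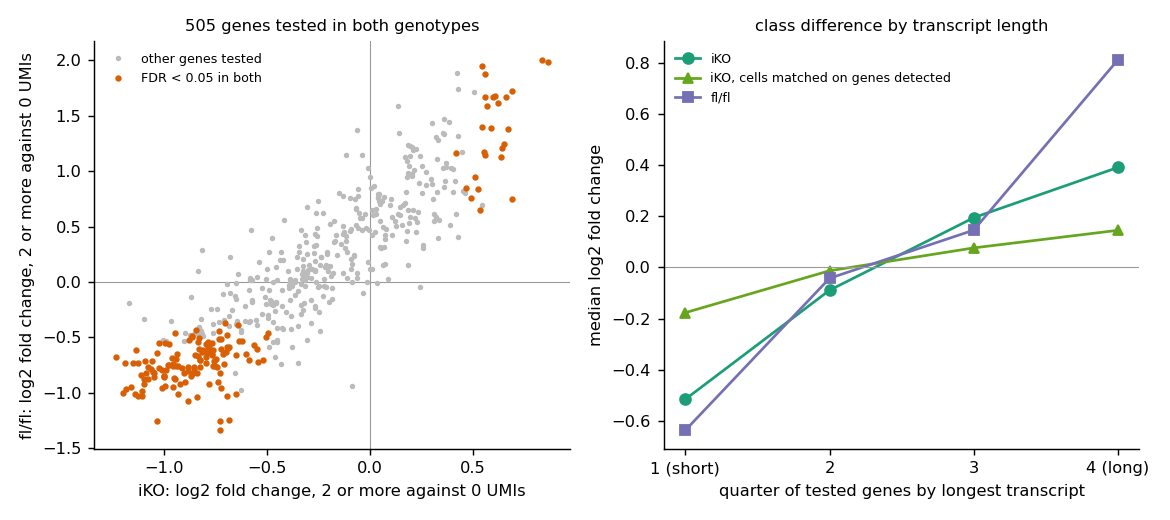
Left, log2 fold change between cells with 2 or more and with 0 Itgb1 UMIs in Itgb1 iKO (horizontal) and Itgb1 fl/fl (vertical) for 505 genes; orange points passed in both. Right, median log2 fold change of tested genes in 4 groups by longest transcript: it climbs from -0.51 to 0.39 in Itgb1 iKO, from -0.18 to 0.14 in cells paired by genes detected and from -0.64 to 0.81 in Itgb1 fl/fl.

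The difference between genotypes in the class contrast was tested itself. Of 1105 genes tested, 0 passed (edgeR interaction term, 90 at an unadjusted p under 0.05), and DESeq2 called 1. In counts simulated for this comparison, a 2-fold interaction was recovered for 56% of changed genes and a 1.5-fold one for 12.4%, so smaller differences could be missed. The gene with the lowest p was Abca3, which was the 1 gene that DESeq2 called. In Itgb1 fl/fl it stood at 1014, 950 and 1075 CPM at day 7 and at 1127, 911 and 1103 CPM at day 21 in cells with 2 or more Itgb1 UMIs, against 453, 600 and 400 CPM and 367, 480 and 345 CPM. These groups did not overlap. In Itgb1 iKO it stood at 1780, 1613 and 1320 CPM and at 1743, 1905 and 1705 CPM against 1211, 1341 and 1505 CPM and 1586, 1681 and 1682 CPM, with overlap. The interaction was -1.08 ± 0.241 on the log2 scale (edgeR adjusted p = 0.0839, DESeq2 log2 difference -1.05, adjusted p = 0.0307). The next lowest in each direction were Mt1 (1.23, adjusted p = 0.389), Ndufa3 (0.92, adjusted p = 0.544), Eif3b (0.98, adjusted p = 0.544), Srsf7 (-1.34, adjusted p = 0.389) and Ralgapa2 (-1.69, adjusted p = 0.389).

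By day, Itgb1 iKO calls were made at day 21 and not at day 7. At day 21, 329 of 5430 genes tested (6.06%) were higher and 663 lower over 3 mice. At day 7, 0 of 1133 passed (edgeR, 92 at an unadjusted p under 0.05), and DESeq2 called 0. Without the third mouse 292 of 1270 passed. In counts simulated for the day 7 comparison, 9.89% of 2-fold and 0% of 1.5-fold changes were recovered. For day 21 the shares were 67.4% and 18.9%, so most such changes could be missed at day 7. The difference between days did not pass for any of 3023 genes (edgeR, 144 at an unadjusted p under 0.05; DESeq2 called 0). In simulated counts for that test a 2-fold difference between days was recovered for 3.06% of changed genes, so most such differences could be missed. The lowest adjusted p was that of Lgals3 (0.185). Sums held 10 to 15 cells with 2 or more Itgb1 UMIs per mouse at day 7 and 46 to 55 at day 21. Each day was 1 library, and the day 21 library was enriched for epithelial cells. Day therefore cannot be told apart from library and sorting.

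The last comparison asks whether Itgb1 iKO cells with 2 or more Itgb1 UMIs differ from Itgb1 fl/fl cells of the same class. At day 21, 152 of 3228 genes tested (4.71%) differed between 3 Itgb1 iKO and 3 Itgb1 fl/fl mice, 48 higher and 104 (3.22%) lower in Itgb1 iKO (edgeR, false discovery rate of 0.05). Of the 104 lower genes, 54 were ribosomal protein genes, out of 79 tested (list median -0.67). Il33, an epithelial alarmin, stood at 1461, 1393 and 1378 CPM in Itgb1 iKO and at 418, 422 and 617 CPM in Itgb1 fl/fl, without overlap (log2 difference 1.42 ± 0.163, adjusted p = 1.52e-06). Malt1 stood at 378, 265 and 436 CPM against 45.5, 77.8 and 45.7 CPM (2.65 ± 0.298, adjusted p = 1.35e-06). Fabp5, a fatty acid binding protein, stood at 270, 349 and 287 CPM against 1155, 589 and 771 CPM (-1.56 ± 0.199, adjusted p = 7.9e-06). Lyz1, a lysozyme (-1.98 ± 0.204), Chia1, an acidic chitinase (-2.43 ± 0.292), and Rps2 (-1.26 ± 0.164) were also lower, and Gclc, which limits the rate of glutathione synthesis (1.19 ± 0.159), Ndnf (1.87 ± 0.298) and Abca17 (3.14 ± 0.473) higher in Itgb1 iKO. Lyz1 is nearly identical to Lyz2, so reads may be split between them.

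Cells with 0 Itgb1 UMIs also differed between genotypes. At day 21, 63 of 4318 genes (1.46%) passed, 39 (0.903%) of them higher in Itgb1 iKO, among them Il33 (1.53 ± 0.241) and Malt1 (4.34 ± 0.785). Malt1 stood at 0 to 93.3 CPM (median 31.0) in the cells at 0 of the 6 Itgb1 fl/fl mice of both days. Its log2 difference therefore rests on few UMIs in Itgb1 fl/fl. Fabp5 was lower (-1.98 ± 0.182), as were 10 of 79 ribosomal protein genes, against 0.556% of all genes called lower. Of the 152 genes called at 2 or more UMIs, 151 were tested at 0, 145 had the same sign and 30 were called in both, which is 19.7% of the 152 and 47.6% of the 63. The cells come from the same mice, so the 2 sets of values are not independent. Within Itgb1 iKO, the Il33 difference between the Itgb1 classes did not pass (0.02 ± 0.166, adjusted p = 0.952). The Itgb1 fl/fl sums at 0 UMIs held only 5 to 11 cells each at day 21, and the median log2 difference of all genes was 0.20. These sums held 25000 to 55000 UMIs, against 615000 to 780000 in Itgb1 iKO. The filter on low counts can be met by the sums of 1 genotype alone, so genes could enter through the deeper Itgb1 iKO sums. How far this shaped the calls was not tested. Without 1 of the Itgb1 iKO mice, 669 to 673 genes were tested and 8 to 56 passed. At day 7, 4 of 826 genes (0.484%) passed at 2 or more UMIs, Fabp5, Srsf7, Acoxl and Pmvk, all lower in Itgb1 iKO, and 4 of 982 (0.407%) at 0, with Abca3 higher (0.102%) and Rps2, Nupr1 and Pmvk lower. Without the second Itgb1 fl/fl mouse of day 7, 12 and 9 genes passed at 2 or more and at 0 UMIs. Each genotype was 1 library per day, so genotype and library cannot be told apart in these comparisons, while the comparison of classes within a mouse is free of that limit.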

How the data were processed

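UMI counts per gene and hashtag antibody were those deposited by the authors, raw and not normalized. The submitters' notes name Cell Ranger 3.1, Seurat 4.1.0 and the mm10 genome. The corrections for free RNA and doublets were not part of the deposited counts. No doublet caller was run here: the gate removed barcodes with UMIs of 5 genes of other cell types, and only cells with a single hashtag (at 4 times its background or more) enter values per mouse. Those were 55.3% of gated cells in the Itgb1 iKO LPS day 7 library and 66.4% at day 21. Total counts were 8360954 to 29128331 UMIs per library.

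Each gated cell was thinned to 5000 UMIs without replacement. Thinned counts were summed per mouse and class with at least 5 cells in both classes and tested with edgeR 4.0.16 (filterByExpr, TMM, quasi-likelihood test with Benjamini-Hochberg adjustment, mouse as a block; R 4.3.3). DESeq2 1.42.0 was an alternative. The mouse block pairs cells of the same mouse by its hashtag. Simulated counts for the comparison of classes in Itgb1 iKO, run on 2878 genes, gave back 89.9% of 2-fold and 39.3% of 1.5-fold changes. Single values were compared over mice by exact permutation in python 3.11.15 with scipy 1.17.1. Per the labels, individual mice were marked by hashtags, and each hashtag in use was taken as 1 mouse, so p-values measure the spread between mice.

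Named genes were, for the classes in Itgb1 iKO, the 12 largest rises and 12 largest falls among calls with the same direction in each Itgb1 iKO LPS library, a set of AT2, AT1 and integrin genes, and up to 4 called members of each list by lowest p. For the other fits they were the 5 genes of lowest p among the calls in each direction, or the 3 of lowest p where none was called. Malat1 and Lars2 were added after their values were seen. Members and lists were chosen with earlier results of these data known. Alternatives covered scaling, test, filter, draw, threshold, gate, hashtag rule and each mouse left out.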

Additional observations from a re-analysis of the deposited data

Results flagged for a closer look

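In 76 sets of 6 mice (class differences of cell measures, of Itgb1 and of the called named genes), 15 had a mouse whose gap to the nearest other took a share of the whole range above Dixon's 95% critical value for 6 samples. Chance flags about 1 in 20. The outlying mouse was the third of Itgb1 iKO day 7 in 10, the second in 4 and the first in 1, and no day 21 mouse was outlying. Day 7 sums held 10 to 15 cells with 2 or more Itgb1 UMIs, against 46 to 55 at day 21.

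The third day 7 mouse had a class difference in ribosomal protein share of 1.29 percentage points, with the others at -2.83 to -2.33 (gap ratio 0.88), and in Malat1 share of -1.37, with the others at 1.61 to 2.86 (0.704). Its CPM difference was 110 for Rps7 (0.757), 182 for Rps28 (0.862), 248 for Rpl27a (0.705) and 347 for Ndufa3 (0.715), where the other mice were all below 0. It was 1138 for AY036118 (0.66), -44.2 for Nfkb1 (0.732), -827 for Ager (0.685) and -2714 for Lars2 (0.768). The second day 7 mouse stood apart in genes detected, 318 against 166 to 209 in the others (0.718), and in Mical2 at 140 CPM (0.748), Lnpep at 224 CPM (0.656) and Cd9 at 194 CPM (0.637). The first stood apart in Napsa, at 268 CPM against -520 to -286 (0.704).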

How the results depend on the processing

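The 706 calls between classes in Itgb1 iKO became 1166 without scaling between sums, 371 in DESeq2, 1302 with all UMIs summed, 185 in cells with no UMI of the endothelial, fibroblast and mural lists (day 21 mice only), 274 with the stricter hashtag rule and 1 in cells paired by genes detected. Leaving out 1 mouse gave 332 to 1175, the highest without the third day 7 mouse and the lowest without the second day 21 mouse. Without the replicate block 801 passed. Other settings gave 490 to 1057. Under each alternative except pairing by genes detected and the removal of cells with UMIs of those lists, where 605 of 614 and 562 of 576 did, every one of the 706 that was tested kept its sign. DESeq2 called 325 genes at day 21 (992 in edgeR), and 1 gene for the difference between genotypes (0 in edgeR).

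Leaving out 1 mouse gave 0 to 292 calls at day 7, 713 to 768 at day 21, 192 to 332 in Itgb1 fl/fl, 0 to 3 for the difference between genotypes and 0 to 4 for that between days. Between genotypes it gave 0 to 12 (day 7) and 61 to 143 (day 21) at 2 or more UMIs, and 1 to 9 and 8 to 111 at 0. The 292 came without the third day 7 Itgb1 iKO mouse, the 61 without the third day 21 Itgb1 fl/fl mouse, the 8 without the third day 21 Itgb1 iKO mouse and the 111 without the second day 21 Itgb1 fl/fl mouse. Differences in cell measures ranged from -1817 to -1402 total UMIs, 193 to 224 genes, 0.245 to 0.474 points of mitochondrial share and -6.94 to -5.77 points of Sftpc share, and Itgb1 in undrawn UMIs from 128 to 180 CPM in Itgb1 iKO and 115 to 171 CPM in Itgb1 fl/fl; 5 mice cannot pass an exact test. With the class set from all UMIs, total UMIs turned to 526 higher. The differences of 151 genes and -4.52 points of Sftpc share had p = 0.03125 and adjusted p = 0.0625 (exact permutation). A second draw gave 170 CPM for Itgb1 in Itgb1 fl/fl (exact p = 0.0625) and 0.678 for the log2 difference between genotypes. Jund turned to 0.14 in cells with no UMI of those lists. The difference between genotypes could not be fitted in those cells. The causes were not tested.

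Depth limits the classes: 1 UMI in 5000 is 200 CPM, near the Itgb1 level itself, so a cell's class is set by few molecules.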
